A study of Mus musculus with 19 samples.

Results

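The 43 genes described here encode the machinery of DNA replication and S phase, and they were followed across 19 RNA libraries of blood-forming cells. They were picked by gene symbol: RefSeq accessions of the deposited count table were matched to mouse symbols, and where a gene had several accessions the one with the highest mean count was kept. All 43 were found among the 24210 named genes of the table. The cells were sorted from C57BL/6 mice as lineage-negative, Sca+ and cKit+, the surface pattern that marks stem and early progenitor cells, and were not cultured. The libraries fall into 4 mutant groups and 1 wild-type group. Idh2 R140Q;Flt3-ITD mice, which carry a mutant of the mitochondrial enzyme isocitrate dehydrogenase 2 and an internal tandem duplication of the receptor Flt3, gave 4 libraries after AG-221 (AG1, AG8, AG12 and AG13) and 3 after vehicle (IDH2-FLT3 vehicle: V3, V3-2 and V9). Mice without the DNA-demethylating enzyme Tet2 that also carried the Flt3 change (labelled Tet2-/-;Flt3-IDT) gave 4 libraries after 5-Aza (AZ10, AZ11, AZ16 and AZ17) and 4 after vehicle (TET2-FLT3 vehicle: V1, V5, V5-2 and V19). Untreated wild-type mice (WT) gave the remaining 4 libraries, wt1 to wt4, and values per library follow these orders throughout. The 4 mutant groups therefore share the Flt3 allele, and the series text describes both mutant lines as mice with acute myeloid leukemia. AG-221, an inhibitor of mutant IDH2, was given by mouth 2 times a day for 4 to 5 weeks, at 100 mg/kg as a single agent or 40 mg/kg in combination, and the labels do not say which of these doses a library stands for. 5-Aza, a hypomethylating cytidine analog, was given at 5 mg/kg by injection, for 5 days out of every 21, over 4 cycles, and the series text also names decitabine beside it. Sex and age of the mice, the driver of any recombinase and whether libraries came from separate animals are not given in the labels, so a p-value measures the spread between libraries, part of which may be technical.

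Replication is prepared in G1 when the Mcm ring is loaded onto origins by Cdc6 and Cdt1, and it starts when Cdc45 and the GINS complex join the ring to form the moving helicase. Primase and polymerase alpha lay down primers, polymerases delta and epsilon extend them behind the sliding clamp Pcna, and the clamp is loaded by replication factor C. Ribonucleotide reductase and thymidylate synthase supply the deoxynucleotides, chromatin assembly factor 1 packs the new DNA, and E2F transcription factors with cyclin E turn most of these genes on as cells leave G1. Normal stem cells of the marrow divide rarely, whereas committed progenitors divide often, so transcripts of these genes are widely read as a mark of cycling cells.

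Library totals ran from 9635795 to 20383132 assigned counts. Levels are given as CPM (counts set to a common library total, with TMM factors), and each log2 fold change with its standard error (SE) after ±. The words rose and fell stand for an edgeR quasi-likelihood test that passed a Benjamini-Hochberg adjusted p of 0.05 over all 11830 accessions tested. Expression of Kit, Ly6a and Ly6e could not be checked, since each has several accessions and at most 0.151 CPM in any library, and Cd34 averaged 8.38 to 15.5 CPM across the groups. Stem cell markers (Hlf, Procr, Mecom and Slamf1) summed to 20.8 to 108 CPM in IDH2-FLT3 vehicle and 184 to 419 CPM in TET2-FLT3 vehicle, against 747 to 1213 CPM in WT. Granulocyte-monocyte progenitor markers (Mpo, Elane, Prtn3, Ctsg and Cebpe) summed to 6365 to 17652 CPM in AG-221 libraries and 19227 to 101263 CPM in IDH2-FLT3 vehicle, against 2006 to 12174 CPM in WT. V3-2 and V5-2 carry a number that V3 and V5 of the same groups also carry, and V1 of TET2-FLT3 vehicle detected the fewest accessions, 12088, while an unnamed accession took 9.50% of its counts.

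Of the 43 genes, 35 passed the filter on low counts and 8 did not. Those 8 were Mcm5 and Slbp, with 0 counts in all 19 libraries, and Fen1, Tyms, Dtl, Ung, E2f1 and Ccne2, whose kept accession had between 3 and 84 counts over all libraries together. Each of the 8 has several accessions in the table. By default the counting program leaves out reads that fall on several features, the setting used is not given in the sources used here, and so these values are not read as expression. Mcm10, Cdc6, Cdc45 and Lig1 also have several accessions and passed the filter at low values, which carry the same doubt. Gins1 and Pola2, with 2 accessions each, passed at higher values, and this doubt covers them too. Only 1 accession stands in the table for 29 of the 43 genes. Where groups are compared by a count of these genes, the count is over the 35.

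E2F factors and the CCAAT-binding factor NF-Y are textbook regulators of replication genes, so the promoters were searched before the levels are described. RefSeq windows of 300 bases (250 before and 50 after the annotated start, GRCm38.p6) were held for 32 of the 43 genes. The E2F octamers TTTCCCGC, TTTCGCGC, TTTGCCGC and TTTGGCGC, searched on both strands, were found in 13 of those 32 genes (40.6%), against 2.61% of the 27025 genes with a window. CCAAT on either strand was found in 59.4% of the 32 and 41.1% of all. The 19 octamer matches in these genes lay between 165 bases before and 40 bases after the start, with a median of 10 bases before it. Octamer matches overlapped each other in Mcm5 and in Mcm6, and an octamer overlapped a CCAAT in Mcm7. Mcm3, Mcm5, Mcm6, Mcm7, Cdc6, Cdt1, Gins3, Pola1, Pold1, Rfc3, Lig1, Clspn and Dtl are the 13 genes with an octamer. A match is a description of letters and not a measured binding site.

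**Figure D1:**
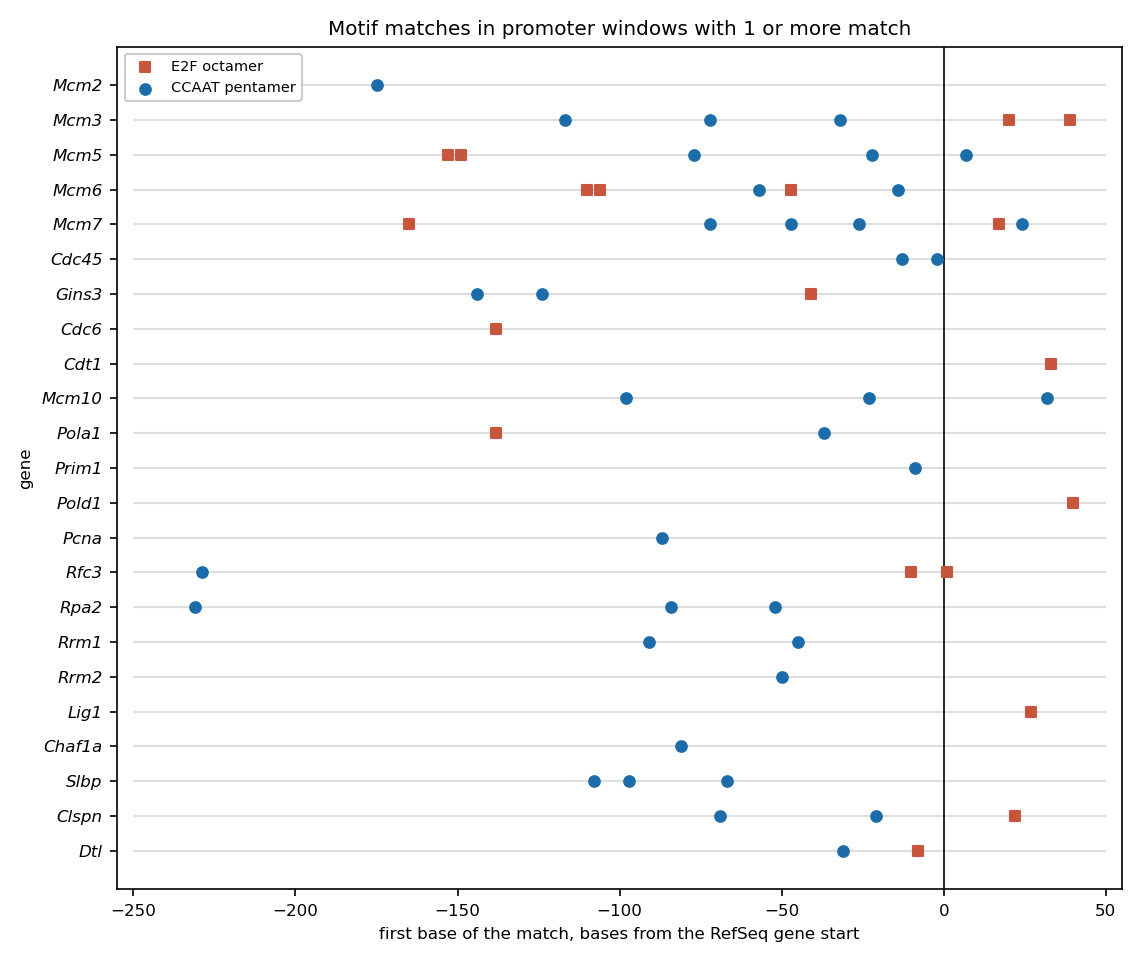
Positions of E2F octamers (squares) and CCAAT pentamers (circles) relative to the RefSeq gene start, for every gene of the set whose window held a match; the grey line is the window searched. The 19 octamer matches sit in 13 genes, between 165 bases before and 40 bases after the start.

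The windows of 4 genes that passed a test in the comparisons with WT are printed 5′ to 3′ on the gene's strand. They were chosen by smallest p, 1 per gene family, among the genes with a window. Capitals mark the octamers and CCAAT or its reverse complement ATTGG.
Pold1 (chr7:44548766-44549065, minus strand): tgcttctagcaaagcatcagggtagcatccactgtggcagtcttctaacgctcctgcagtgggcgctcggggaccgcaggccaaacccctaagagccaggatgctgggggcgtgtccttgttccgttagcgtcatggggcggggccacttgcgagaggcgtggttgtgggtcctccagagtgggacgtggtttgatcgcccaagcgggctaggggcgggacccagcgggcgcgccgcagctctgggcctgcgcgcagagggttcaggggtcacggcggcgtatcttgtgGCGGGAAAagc
Mcm3 (chr1:20820263-20820562, minus strand): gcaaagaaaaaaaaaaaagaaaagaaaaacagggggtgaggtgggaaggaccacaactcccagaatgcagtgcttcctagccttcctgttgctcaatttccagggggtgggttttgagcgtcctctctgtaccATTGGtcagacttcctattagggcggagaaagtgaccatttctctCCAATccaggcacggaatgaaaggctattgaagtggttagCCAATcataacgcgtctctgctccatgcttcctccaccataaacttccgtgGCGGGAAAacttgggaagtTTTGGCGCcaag
Rrm1 (chr7:102441445-102441744, plus strand): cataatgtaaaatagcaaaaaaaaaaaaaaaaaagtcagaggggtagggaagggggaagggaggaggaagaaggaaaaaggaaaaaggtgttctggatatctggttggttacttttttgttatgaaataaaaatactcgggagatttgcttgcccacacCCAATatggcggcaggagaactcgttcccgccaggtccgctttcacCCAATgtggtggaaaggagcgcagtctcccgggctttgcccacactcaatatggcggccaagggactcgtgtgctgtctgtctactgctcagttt
Pcna (chr2:132253131-132253430, minus strand): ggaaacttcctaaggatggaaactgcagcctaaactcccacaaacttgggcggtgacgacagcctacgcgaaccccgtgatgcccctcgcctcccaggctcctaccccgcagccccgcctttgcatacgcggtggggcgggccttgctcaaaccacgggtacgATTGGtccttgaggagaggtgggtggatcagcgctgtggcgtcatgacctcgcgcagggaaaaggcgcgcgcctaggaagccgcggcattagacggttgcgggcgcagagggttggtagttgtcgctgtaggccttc
Mcm3 held 2 octamers and 3 CCAAT matches, Pold1 held 1 octamer and no CCAAT, and Rrm1 and Pcna held 2 and 1 CCAAT matches without an octamer.

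In Idh2 R140Q;Flt3-ITD cells given vehicle, replication genes from several steps of the process rose against WT cells, among them subunits of the Mcm ring and of ribonucleotide reductase and the catalytic subunit of polymerase delta. Of the 35 tested genes 7 rose (Pold1, Mcm3, Rrm1, Mcm2, Rrm2, Prim2 and Exo1) and 0 fell, against 10.1% of all accessions tested called higher and 10.4% called lower. The median log2 fold change of the 35 was 0.33, against 0.025 for all accessions, and 27 of the 35 were positive. The count of positive genes depends on the scaling: on log2(FPKM + 1) it was 19 of 35, with a median of 0.024. Summed over the 35, the level ran from 6752 to 7865 CPM in IDH2-FLT3 vehicle libraries and from 4088 to 5621 CPM in WT libraries, without overlap. In bulk RNA, a larger share of cells of one kind and more RNA per cell cannot be told apart.

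Of the 10 tested genes of the replicative helicase, 9 had a positive estimate in this comparison and 2 rose. Mcm2, a subunit of the ring, had 479, 559 and 357 CPM in IDH2-FLT3 vehicle libraries and 234, 271, 247 and 168 CPM in WT libraries. Its lowest vehicle library stood above the highest WT library, and the log2 fold change was 1.02 ± 0.29 (adjusted p = 0.0188). Mcm3, another subunit of the ring, had 869.6, 707 and 604 CPM, against 357, 476, 383 and 251 CPM in WT. Its groups did not overlap either, at 0.99 ± 0.28 (adjusted p = 0.0172). Mcm4 (0.71 ± 0.26, adjusted p = 0.0624) did not pass although its groups did not overlap, nor did Mcm6 (0.55 ± 0.34, adjusted p = 0.259). Mcm7 had 371, 359 and 337 CPM in vehicle libraries and 251, 310.2, 341 and 219 CPM in WT libraries, which overlapped (adjusted p = 0.346). Together the 5 measured Mcm subunits held 2594 ± 349.8 CPM in IDH2-FLT3 vehicle (SD, n = 3) and 1560.2 ± 327 CPM in WT (SD, n = 4). Among the GINS subunits, Gins2 had 129, 78.6 and 133 CPM and in WT 92.8, 106, 83.6 and 79.2 CPM, with overlap, while Gins3 was at 0.56 ± 0.22 (adjusted p = 0.0785), Gins4 at 0.29 and Gins1 at -0.19. Cdc45, the helicase activator, had 14.5, 7.02 and 4.73 CPM in vehicle libraries and 1.15, 2.19, 1.24 and 1.61 CPM in WT libraries. Every vehicle library was above every WT library, yet these few reads gave a wide estimate of 2.49 ± 1.02 (adjusted p = 0.0883).

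The licensing factors did not pass. Cdc6 had 2.02, 2.60 and 1.44 CPM in IDH2-FLT3 vehicle libraries and 0.996, 1.06, 0.991 and 0.161 CPM in WT libraries, apart but at few reads (1.33 ± 0.58, adjusted p = 0.110). Cdt1, which brings the ring to origins, had 99.2, 232 and 131 CPM and in WT 118, 123, 141 and 109 CPM. V3-2 alone held the high Cdt1 value, and V3 was below every WT library. Mcm10, a late initiation factor, had 0.506, 0.337 and 0.401 CPM in vehicle libraries and 0.460, 0.604, 0.248 and 1.05 CPM in WT libraries, all low and overlapping.

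Pold1 and the primase subunit Prim2 were called, while Prim1 and the measured genes of polymerases alpha and epsilon were not. Pold1, the catalytic and proofreading subunit of polymerase delta, had 287, 366 and 206 CPM in IDH2-FLT3 vehicle libraries and 139, 151, 124 and 114 CPM in WT libraries. The groups stood well apart, at 1.12 ± 0.28 (adjusted p = 0.00955), the smallest p of the set. Prim2, the large primase subunit, had 147, 97.4 and 97.2 CPM, against 57.8, 78.1, 76.5 and 43.9 CPM in WT. It rose by 0.83 ± 0.28 (adjusted p = 0.0428), with the V3 library highest. The catalytic primase subunit Prim1 was at 0.17 ± 0.26, Pola1 at -0.03 ± 0.22, Pola2 at -0.14 ± 0.32 and Pole at 0.28 ± 0.34, and none of these passed.

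Both measured genes of nucleotide supply rose. Rrm1, the large subunit of ribonucleotide reductase, had 694, 599 and 509 CPM in IDH2-FLT3 vehicle libraries and 262, 343, 295 and 167 CPM in WT libraries, without overlap (1.17 ± 0.33, adjusted p = 0.0185). Rrm2, the small subunit that is made in S phase, had 791, 289 and 525 CPM, against 287, 341, 163 and 119.9 CPM in WT. Its log2 fold change of 1.23 ± 0.40 passed (adjusted p = 0.0328), but V3-2 lay within the WT range. Per length, Rrm1 stood at rank 6 of the 29 single-accession genes in IDH2-FLT3 vehicle (139.9 ± 17.2 FPKM) and at rank 15 in WT (74.5 ± 17.8 FPKM). Exo1, an exonuclease of mismatch repair and replication forks, also rose (73.6 to 100.1 CPM in vehicle libraries and 43.5 to 65.5 CPM in WT libraries, 0.65 ± 0.22, adjusted p = 0.0443).

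None of the genes of the clamp and its loader passed. Pcna had 139, 222 and 169 CPM in IDH2-FLT3 vehicle libraries and 159, 153, 159.6 and 155 CPM in WT libraries, with V3 below every WT library (0.17 ± 0.27, adjusted p = 0.677). Of the 7 genes for the clamp, its loaders and the single-strand binding protein Rpa2, 0 were called, and their median was 0.12. Rfc3, a loader subunit, was lower in every vehicle library than in any WT library (70.0 to 89.6 CPM in vehicle and 92.5 to 118 CPM in WT) without passing (-0.39 ± 0.28, adjusted p = 0.345). It was the 1 gene of the 35 with vehicle libraries wholly below WT, while 11 of the 35 had them wholly above, against 20.0% and 17.1% of all accessions. Lig1, the ligase that seals Okazaki fragments, had 4.13, 3.22 and 7.06 CPM in vehicle libraries and 8.35, 8.38, 11.8 and 3.95 CPM in WT libraries, with overlap. Chaf1a, the large subunit of chromatin assembly factor 1, was higher in every vehicle library (92.8 to 198 CPM and in WT 51.3 to 89.5 CPM) and did not pass (0.89 ± 0.35, adjusted p = 0.0752), and its partner Chaf1b was at 0.14 ± 0.35. Tipin and Clspn, which hold a stalled fork together, were at -0.08 ± 0.33 and 0.25 ± 0.27. Ccne1, the cyclin that starts S phase with Cdk2, had 20.2, 38.3 and 18.4 CPM, against 12.8, 14.6, 11.8 and 18.6 CPM in WT. The lowest vehicle library fell within the WT range, and the gene did not pass (0.83 ± 0.32, adjusted p = 0.0747).

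**Figure D2:**
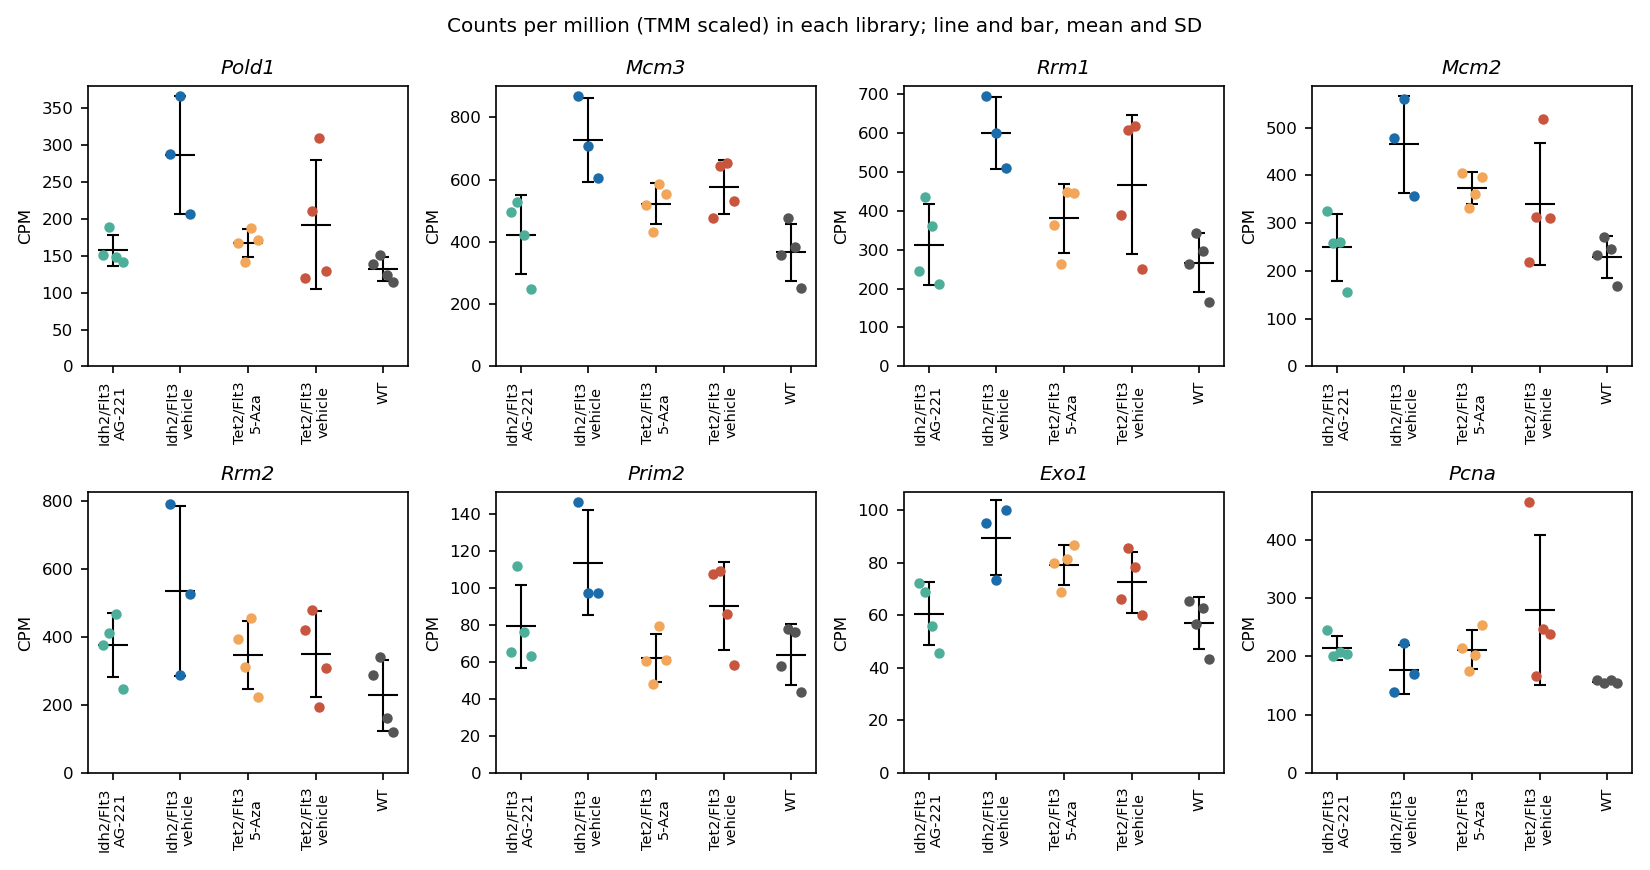
CPM of the 7 genes that rose in IDH2-FLT3 vehicle against WT and of Pcna, which rose in TET2-FLT3 vehicle; each point is a library, the horizontal line is the group mean and the bar the SD (n = 4, 3, 4, 4 and 4 libraries from left to right). For Pold1 the vehicle libraries of the Idh2/Flt3 line ran from 206 to 366 CPM and the WT libraries from 114 to 151 CPM.

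These calls rest on 3 vehicle and 4 WT libraries, and each of the 7 ended without at least 1 of them. Pold1 was lost without V3-2 (adjusted p = 0.0600) and held without each of the other 6. Mcm2 was lost without V3 (0.0575), V3-2 (0.0797) or wt4 (0.0588), and Mcm3 without V3 (0.0835) or wt4 (0.0542). Rrm1 was lost without V3 (0.0730) or wt4 (0.0635), and Rrm2 without V3 (0.197), wt3 (0.0964) or wt4 (0.0917). Prim2 was lost without V3 (0.206), V3-2 (0.0579), wt1 (0.0998), wt3 (0.0541) or wt4 (0.121). Exo1 was lost without any 1 of the 7 libraries but V3-2, with an adjusted p of 0.0553 to 0.123. Prim2 and Exo1 also ended with RLE factors (adjusted p = 0.0524 and 0.0503) and without the filter (0.0648 and 0.127). In the fit of the compared groups alone Rrm2 (0.0557) and Exo1 (0.0631) did not pass. With V3-2 and V5-2 summed with their namesakes, Mcm3, Rrm1, Prim2 and Exo1 did not pass (0.0510 to 0.118). Every one of these estimates stayed positive. The wt4 library had the lowest summed level of the set (4088 CPM), and V3 the highest (7865 CPM). On log2(FPKM + 1) none of the 7 passed (adjusted p from 0.0637 to 0.307); that scale moved the median of all accessions to -0.20, and the members stood 0.23 above it, against 0.30 with TMM. Granulocyte-monocyte progenitor markers moved with the set, with all 5 called higher, as did all 5 monocyte markers (Csf1r, Ccr2, Lyz2, Cx3cr1 and Ms4a6c), while 4 of 4 tested stem cell markers, 5 of 5 erythroid markers and 4 of 4 tested B cell markers were called lower. The B cell markers summed to 0.577 to 1.18 CPM in vehicle libraries and 169.9 to 232 CPM in WT libraries, and the erythroid markers to 5.10 to 7.78 CPM in vehicle and 70.3 to 152 CPM in WT. The rank correlation of log2 fold change with accession length was 0.36 over the 35 genes and 0.059 over all accessions, a description across genes. The part of these shifts in the rise of replication genes was not tested.

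**Figure D3:**
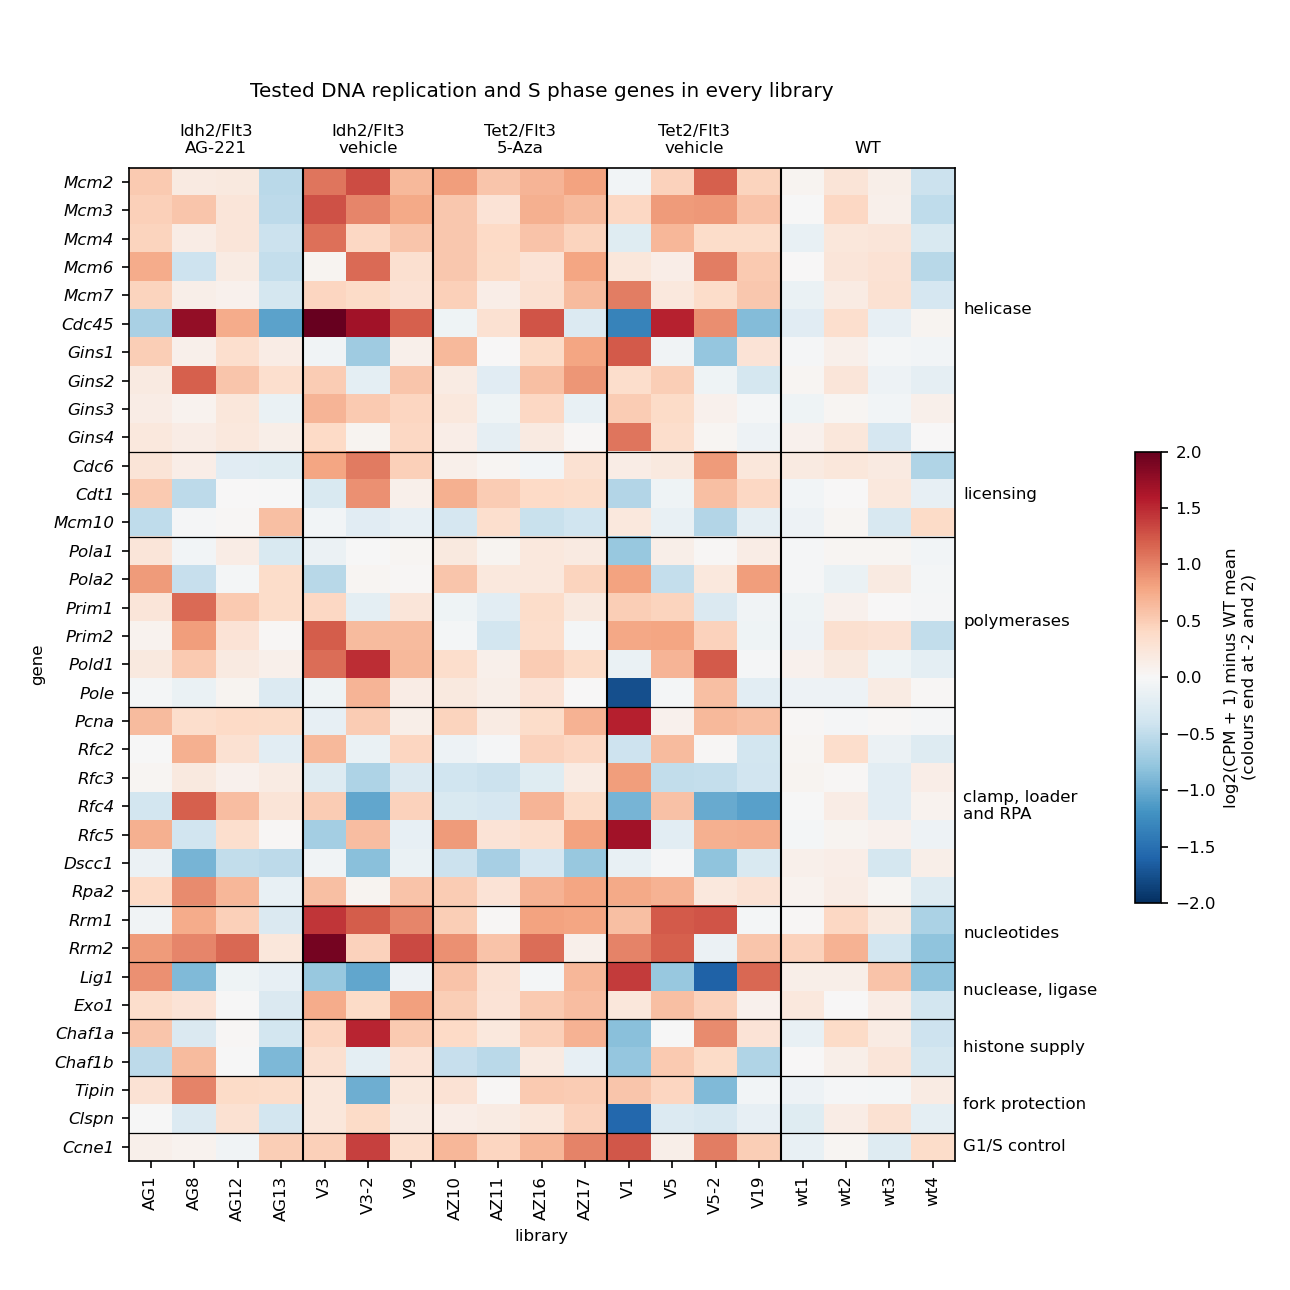
Levels of the 35 tested genes (rows, by role) in the 19 libraries (columns, by group), as log2(CPM + 1) minus the mean of the WT libraries; red is above and blue below that mean. Mcm2, Mcm3, Pold1 and Rrm1 are red in all 3 vehicle libraries of the Idh2/Flt3 line, and V1 differs from the rest of its group, with Rfc5 and Pcna high and Pole and Clspn low.

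In TET2-FLT3 vehicle cells against WT, Pcna was the 1 replication gene that passed. The median log2 fold change was 0.35 for the 35 genes and 0.071 for all accessions, and 27 of 35 were positive. On log2(FPKM + 1) 18 of 35 were positive, with a median of 0.045, against -0.18 for all accessions. The background of higher calls over all accessions was 4.43%. Pcna, the sliding clamp, had 465, 166, 247 and 239 CPM in TET2-FLT3 vehicle libraries and 159, 153, 159.6 and 155 CPM in WT libraries. All vehicle libraries were above WT, V1 far above the rest, and the log2 fold change was 0.83 ± 0.26 (adjusted p = 0.0427). The call ended without V1 (adjusted p = 0.155) and without wt1 (0.0916), wt2 (0.0847), wt3 (0.0964) or wt4 (0.0922). Erythroid markers (5 of 5), B cell markers (4 of 4 tested) and 2 of 4 tested stem cell markers were called lower, and 3 of 5 monocyte markers higher; their part was not tested. Mcm3 and Rpa2 were the other genes whose libraries did not overlap WT, against 6.98% of all accessions with vehicle wholly above; Mcm3 was at 0.65 ± 0.26 (adjusted p = 0.113) and Rpa2 at 0.51 ± 0.24 (adjusted p = 0.181).

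In TET2-FLT3 vehicle libraries, named in the order V1, V5, V5-2 and V19, Mcm2 had 218, 313, 519 and 309.8 CPM and Mcm3 had 477, 643, 653 and 529.9 CPM. Pold1 had 120.4, 210.1, 309 and 129 CPM, Rrm1 had 390.1, 608, 618 and 249.9 CPM and Rrm2 had 419, 479, 192 and 308 CPM. V5 and V5-2 were above the WT range for Pold1 and Rrm1, V1 was above it for Rrm1, and V1 and V19 were within it for Pold1. None of these passed, with adjusted p of 0.187 for Mcm2, 0.194 for Pold1, 0.103 for Rrm1 and 0.291 for Rrm2. Prim2 had 108, 109, 86.2 and 58.5 CPM, Mcm7 had 561, 321, 356 and 402 CPM and Gins2 had 115, 127, 84.6 and 69.9 CPM. Cdt1 had 80.9, 115, 186 and 163 CPM and Ccne1 had 34.9, 15.6, 30.0 and 20.4 CPM. Ccne1 was the next closest to the threshold with Rfc5, at 0.80 ± 0.30 (adjusted p = 0.0939) and 0.89 ± 0.34 (adjusted p = 0.0941). At few reads, Cdc45 had 0.00, 6.28, 3.77 and 0.384 CPM, Cdc6 had 0.954, 1.01, 2.17 and 1.06 CPM, Mcm10 had 0.818, 0.405, 0.0410 and 0.384 CPM and Lig1 had 21.7, 4.12, 1.80 and 18.04 CPM. The Cdc45 count of 0 in V1 allows up to 0.409 CPM (3 counts; counting error only).

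The vehicle groups of both lines were not told apart by any replication gene (0 of 35 by edgeR and 0 by DESeq2, background 4.28%). At an unadjusted p under 0.05 there were 3 of 35 and 2487 of all 11830 tested. Clspn came closest, at 118, 132 and 115 CPM in IDH2-FLT3 vehicle libraries and 33.4, 84.1, 81.4 and 90.6 CPM in TET2-FLT3 vehicle libraries (0.75 ± 0.27, adjusted p = 0.122). The Tet2 line was lower in every library, with V1 at its lowest value; it was the 1 gene of 35 whose groups did not overlap, against 4.07% of all accessions with the Idh2 line wholly above. Pcna went the other way, at -0.66 ± 0.28 (adjusted p = 0.182). Without V5-2, Pold1 and Chaf1a passed. V5-2 held the highest value of its group for both (309 and 132 CPM), so its removal by itself lowers the group mean. The share of everything tested that passed in that fit is not given here. Pold1 rose by 1.12 ± 0.28 over WT in the Idh2 line and was at 0.54 ± 0.27 in the Tet2 line, and the difference between the lines was 0.58 ± 0.28 (adjusted p = 0.248); the comparisons with WT share the WT libraries. A test for any difference among the 5 groups called Pold1 alone, against 19.9% of all accessions, and that call ended without V3-2 (adjusted p = 0.175) and without 13 other single libraries.

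In Idh2 R140Q;Flt3-ITD mice given AG-221, several genes that stood high under vehicle had lower values, but 0 of 35 passed (background 9.68% called either way, 5.29% lower). At an unadjusted p under 0.05 there were 10 of the 35 and 3541 of all 11830 tested, a similar share. DESeq2 called 4 of the 35 lower (Mcm2, Mcm3, Pold1 and Rrm1, background 8.99% lower). The median log2 fold change was -0.27, with that of all accessions near 0, and 13 of 35 were positive. The comparison shares the vehicle libraries with the comparison of vehicle with WT, so high values there give low values here without any further measurement.

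Mcm2 had 325, 257, 260.0 and 156 CPM in AG-221 libraries (AG1, AG8, AG12 and AG13), against 479, 559 and 357 CPM in IDH2-FLT3 vehicle libraries. No AG-221 library reached the lowest vehicle library, and the log2 fold change was -0.90 ± 0.29 (adjusted p = 0.0553). Pold1 had 151, 188, 149 and 141 CPM with AG-221, against 287, 366 and 206 CPM with vehicle (-0.87 ± 0.28, adjusted p = 0.0564). Rrm1 had 245, 434, 361 and 212 CPM with AG-221 (-0.94 ± 0.33, adjusted p = 0.0739), and Mcm3 had 497, 528, 421 and 247 CPM (-0.78 ± 0.28, adjusted p = 0.0748). All AG-221 libraries lay below all vehicle libraries for these 4 genes and for Exo1, Gins3 and Cdc6, which makes 7 of 35 against 10.8% of all accessions. AG13 was the lowest AG-221 library for each of Mcm2, Mcm3, Pold1 and Rrm1. Rrm2 had 377, 411, 467 and 245 CPM with AG-221 and Prim2 had 65.4, 112, 76.0 and 63.5 CPM, both overlapping vehicle (adjusted p = 0.390 and 0.220). Leaving out V9 brought Mcm2 (adjusted p = 0.0278) and Pold1 (0.0219) under the threshold, and leaving out V3-2 moved them to 0.233 and 0.280.

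Other genes of the set went either up or down with AG-221, and 22 of all 35 estimates were negative. Pcna had 245, 201, 207 and 204 CPM with AG-221, within or above the vehicle libraries (0.27 ± 0.28). Tipin, Rfc3 and Gins1 were higher in every AG-221 library than in any vehicle library, at 0.62 ± 0.33, 0.51 ± 0.28 and 0.48 ± 0.35, without passing; over all accessions 13.0% had AG-221 wholly above. Mcm7 had 376, 301, 292 and 216 CPM, Gins2 had 102, 206, 133 and 114 CPM and Cdt1 had 176, 85.1, 123 and 122 CPM. Ccne1 had 15.4, 14.9, 13.5 and 20.4 CPM with AG-221, against 20.2, 38.3 and 18.4 CPM with vehicle (-0.68 ± 0.32, adjusted p = 0.166). At few reads, Cdc45 had 0.604, 7.55, 3.20 and 0.195 CPM, Cdc6 had 1.11, 0.924, 0.505 and 0.488 CPM, Mcm10 had 0.101, 0.539, 0.589 and 1.37 CPM and Lig1 had 15.2, 3.70, 7.16 and 6.74 CPM. Transcript length moved with this comparison: over the 35 genes the rank correlation of the log2 fold change with accession length was -0.53, and it was -0.21 over all 11830 accessions (a description across genes, which share libraries). The 5 granulocyte-monocyte progenitor markers summed to 6365 to 17652 CPM with AG-221 and 19227 to 101263 CPM with vehicle, with 3 of 5 called lower, and 4 of 4 tested stem cell markers were called higher. The part of length or cell types in the lower values was not tested.

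**Figure D4:**
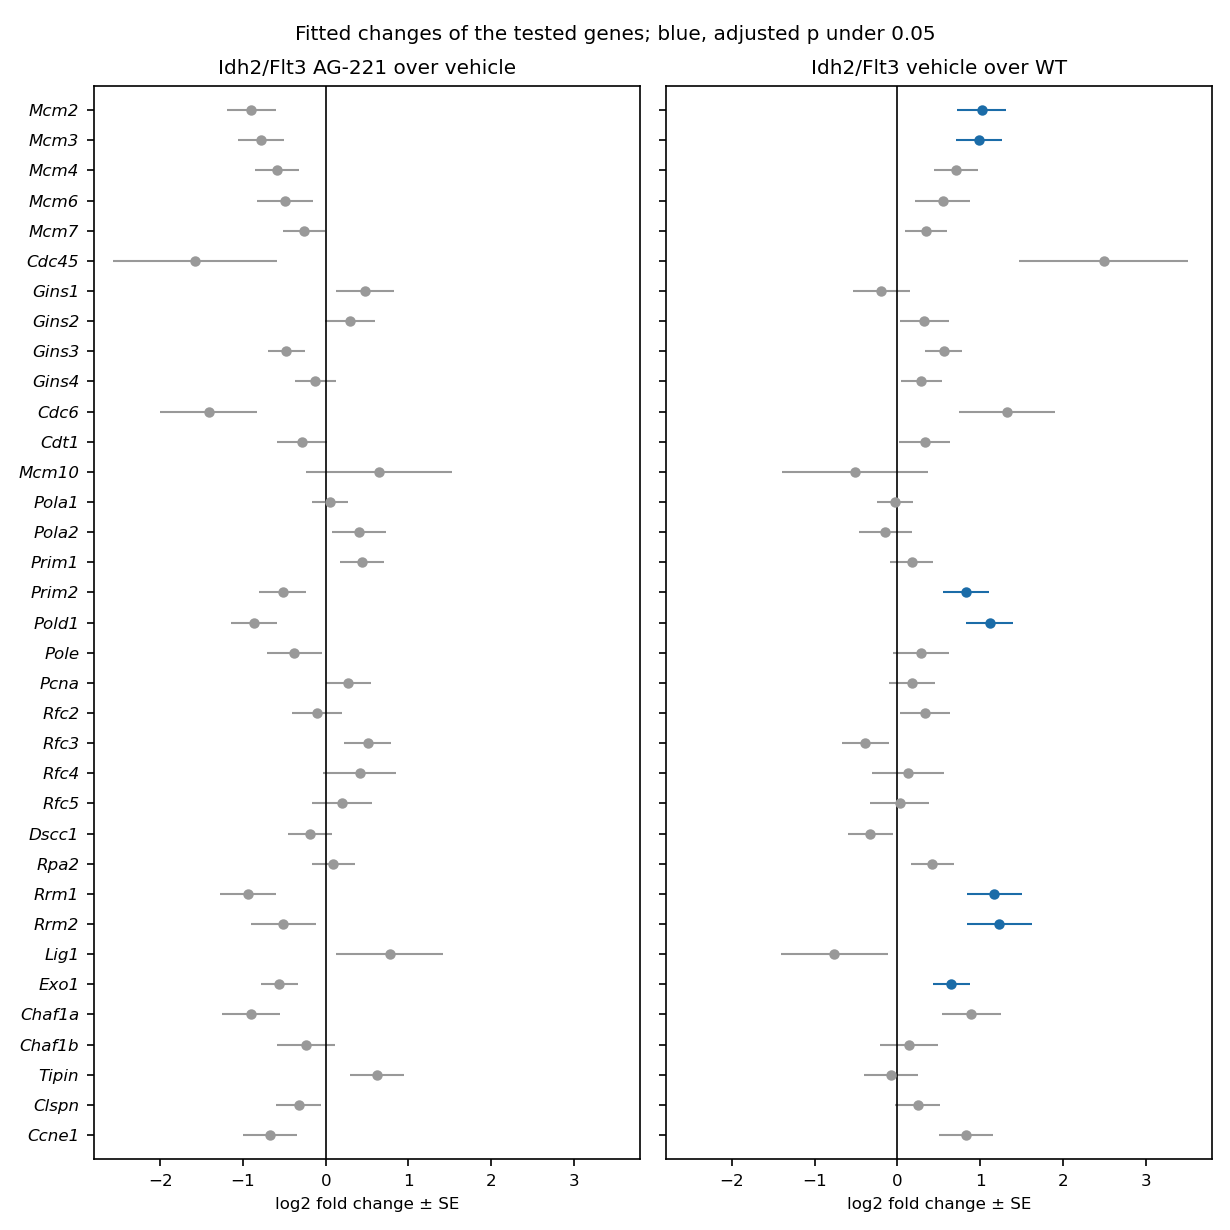
Fitted log2 fold changes with their SE for the 35 tested genes: AG-221 over vehicle in the Idh2/Flt3 line (left) and vehicle of that line over WT (right); blue marks an adjusted p under 0.05. The 7 blue genes are on the right, and the panels share the 3 vehicle libraries.

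Against WT, AG-221 libraries showed no called replication gene (0 of 35 by edgeR and 0 by DESeq2, background 2.71%). At an unadjusted p under 0.05 there were 3 of 35 and 1524 of all 11830 tested. The median was 0.15, and 29 of 35 were positive; on log2(FPKM + 1) the median was -0.0021, and 17 of 35 were positive. Mcm2 averaged 249.6 ± 69.9 CPM with AG-221 and 229.8 ± 43.9 CPM in WT (SD, n = 4 each), a difference of 0.12 ± 0.27 on the log2 scale. For Pold1 it was 0.25 ± 0.26, for Mcm3 0.21 ± 0.26 and for Rrm1 0.23 ± 0.31. A p that misses the threshold does not show that the groups are alike. Prim1 had the smallest p, at 0.61 ± 0.24 (adjusted p = 0.239), and every AG-221 library was above WT for it (195 to 362 CPM and in WT 155 to 175 CPM), as for Pcna and Tipin and for 6.98% of all accessions.

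No replication gene passed in Tet2-/-;Flt3-IDT cells given 5-Aza against those given vehicle (0 of 35 by edgeR and 0 by DESeq2, background 1.88%). An unadjusted p under 0.05 was found for 1 of 35 and for 1482 of all 11830 tested. The median log2 fold change was -0.069, against -0.051 for all accessions; on log2(FPKM + 1) the median was 0.037. The 1 gene was Clspn, the adaptor that activates the checkpoint kinase Chk1, with 112, 113, 119.5 and 139.6 CPM in 5-Aza libraries and 33.4, 84.1, 81.4 and 90.6 CPM in TET2-FLT3 vehicle libraries. Every 5-Aza library was above every vehicle library, as for 2.83% of all accessions (0.74 ± 0.26, adjusted p = 0.192). For 4 of the genes called in the Idh2 line the estimates were near 0: Mcm2 had 405, 332, 362 and 397 CPM with 5-Aza (AZ10, AZ11, AZ16 and AZ17) and was at 0.14 ± 0.27 against vehicle. Mcm3 had 519, 432, 586 and 555 CPM (-0.14 ± 0.26), Pold1 had 167, 141, 187 and 171 CPM (-0.21 ± 0.26), and Rrm1 had 364, 263, 449 and 445 CPM (-0.29 ± 0.31). The 5-Aza libraries lay within the vehicle range for each of these 4 genes except Mcm3. Rrm2 had 394, 311, 455 and 223 CPM (-0.02 ± 0.37), Prim2 had 60.7, 48.1, 79.5 and 61.1 CPM (-0.54 ± 0.26) and Pcna had 214, 176, 202 and 254 CPM (-0.40 ± 0.25). Mcm7 had 385, 302, 342 and 429 CPM, Gins2 had 101, 76.3, 136 and 166 CPM, Cdt1 had 201, 175, 162 and 159 CPM and Ccne1 had 23.1, 19.6, 23.1 and 29.3 CPM. At few reads, Cdc45 had 1.38, 2.10, 5.01 and 1.08 CPM, Cdc6 had 0.890, 0.808, 0.683 and 1.17 CPM, Mcm10 had 0.243, 0.970, 0.152 and 0.180 CPM and Lig1 had 11.8, 9.54, 7.36 and 12.7 CPM. With 5-Aza 3 of 5 erythroid markers were called higher, as was 1 of 4 tested among the stem cell, B cell and megakaryocyte markers each. Of the monocyte markers 1 of 5 was called lower, and of the granulocyte-monocyte progenitor markers 0 of 5 were called. The part of these markers was not tested.

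Against WT, the 5-Aza libraries had 30 of 35 positive estimates and a median of 0.37, against -0.035 for all accessions; on log2(FPKM + 1) 22 of 35 were positive, with a median of 0.14. The summed level of the 35 ran from 5379 to 6899 CPM with 5-Aza and from 4088 to 5621 CPM in WT, with overlap. None passed (0 by edgeR and 0 by DESeq2, background 1.72%). An unadjusted p under 0.05 was found for 5 of 35 and for 1908 of all 11830 tested. For 10 of 35 the 5-Aza libraries lay wholly above WT, against 11.6% of all accessions. The smallest p was that of Mcm2, which averaged 374 ± 33.8 CPM with 5-Aza and 229.8 ± 43.9 CPM in WT (SD, n = 4 each), a log2 fold change of 0.70 ± 0.27 with an adjusted p of 0.204. This count depends on which libraries set the spread: a fit of the 8 libraries alone called 7 genes (Ccne1, Mcm2, Rpa2, Exo1, Cdt1 and Rfc5 higher, Dscc1 lower), against 19.2% of all accessions either way and 8.28% higher. The 5-Aza libraries were closer to each other than those of the other mutant groups for Mcm2, with an SD of 33.8 CPM, against 69.9 CPM with AG-221, 102 CPM in IDH2-FLT3 vehicle and 127 CPM in TET2-FLT3 vehicle. In 5-Aza libraries 4 of 4 tested B cell markers and 1 of 5 T or NK cell markers were called lower than in WT. Of the erythroid markers 0 of 5 were called, and of the tested stem cell markers 0 of 4. Their part was not tested. The log2 change under AG-221 minus that under 5-Aza, each against its own vehicle group, was called for 0 of 35 by edgeR and 0 by DESeq2 (background 0.228%). At an unadjusted p under 0.05 there were 5 of 35 and 1831 of all 11830 tested. Clspn (-1.07 ± 0.38, adjusted p = 0.198) and Mcm2 (-1.03 ± 0.40, adjusted p = 0.235) were closest, both more negative for AG-221. Depth and spread limit all of these tests, by an amount not measured for these genes. Counts were simulated with these library sizes and 200 changes placed at random over all 11830 tested. There the comparison of AG-221 found 10.4% of changes of 2 times and 62.7% of changes of 4 times. That of 5-Aza found 11.9% and 53.7%. Because the changes were drawn at random from all levels and were set at 200, these shares do not give the power for the 35 genes.

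Levels differed widely within the set. Per length, among the 29 genes with 1 accession, Tipin was highest in AG-221 libraries (394 ± 119 FPKM), 5-Aza libraries (326 ± 44.4 FPKM), TET2-FLT3 vehicle (263 ± 72.2 FPKM) and WT (301 ± 42.0 FPKM). In IDH2-FLT3 vehicle Rfc2, a clamp loader subunit, came first (268 ± 46.3 FPKM), ahead of Mcm3 (234 ± 30.3 FPKM) and Tipin (230.0 ± 80.7 FPKM), by less than the SD of Rfc2. Ccne1 was lowest in all 5 groups (12.6 ± 6.62 FPKM in IDH2-FLT3 vehicle and 8.40 ± 2.21 FPKM in WT), next to Exo1 (15.1 ± 1.87 FPKM in IDH2-FLT3 vehicle and 11.6 ± 1.58 FPKM in WT). Mcm6, Mcm3 and Mcm7 lay above Mcm4 and Mcm2 in every group.

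The libraries that share a number differed from each other in the same way in both lines. Across the 35 genes, V3-2 minus V3 and V5-2 minus V5 had the same sign in 29, against 83.85% of all accessions. Their rank correlation was 0.89, with 0.84 over all accessions (a description across genes that share these 4 libraries). On the log2 scale, Rfc4 was at -1.55 and -1.61, Rrm2 at -1.45 and -1.32, and Tipin at -1.20 and -1.31, all lower in V3-2 and V5-2. Rfc5 was at 1.31 and 0.93, Mcm6 at 1.09 and 0.88, and Chaf1a at 1.09 and 0.96, all higher in V3-2 and V5-2. The rank correlation of these differences with accession length was 0.45 and 0.40, and with GC content 0.47 and 0.46. The labels do not say how the -2 libraries relate to their namesakes, and the cause of the shared difference was not tested. Without V3-2 and V5-2 the comparison of IDH2-FLT3 vehicle with WT called 7 genes, with Mcm4 in and Prim2 out, and that of TET2-FLT3 vehicle called Pcna. The shares of everything tested that were called without V3-2 and V5-2 are not given here, so these counts have no background beside them.

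**Figure D5:**
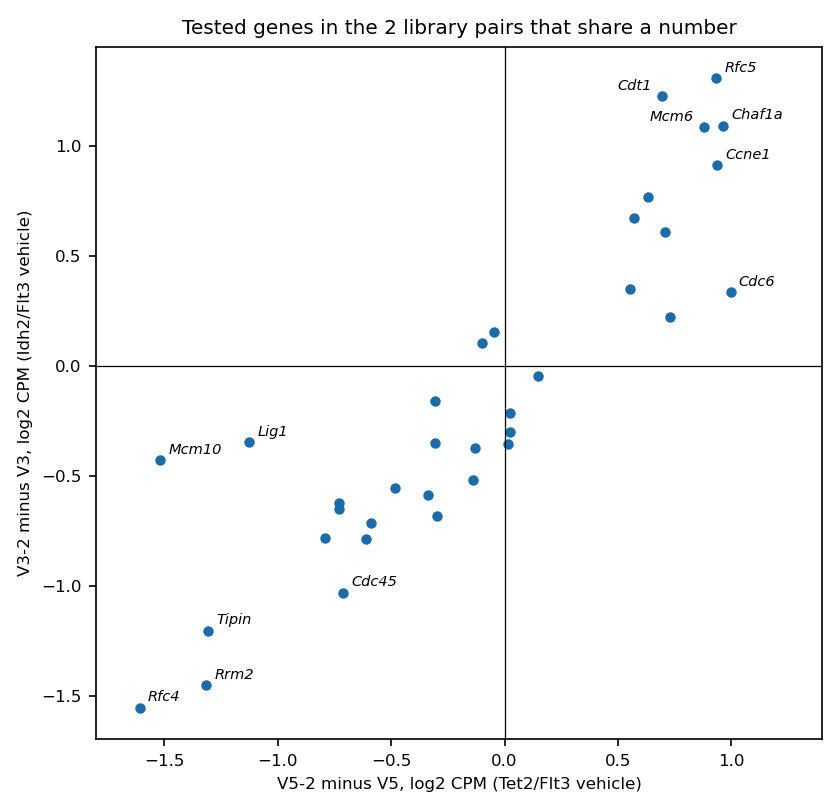
Difference in log2 CPM between the libraries that share a number, for the 35 tested genes: V5-2 minus V5 on the x axis (TET2-FLT3 vehicle) and V3-2 minus V3 on the y axis (IDH2-FLT3 vehicle). Most points lie in the lower left and upper right, with Rfc4, Rrm2 and Tipin at the lower left and Rfc5, Mcm6 and Chaf1a at the upper right.

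Other genes of replication, the cell cycle and its brakes were read from lists, whose counts stand beside the shares of all accessions called: 10.1% higher in IDH2-FLT3 vehicle and 4.43% higher in TET2-FLT3 vehicle against WT, 5.29% lower with AG-221 against vehicle and 1.72% either way in 5-Aza libraries against WT. The shares of further replication genes called, 7.14% in IDH2-FLT3 vehicle and 3.57% in TET2-FLT3 vehicle, were below them. Of 37 further replication genes 28 were tested, and 2 rose in IDH2-FLT3 vehicle against WT: Wdhd1, which ties polymerase alpha to the helicase, had 204, 193 and 154 CPM in vehicle libraries and 95.0, 86.7, 106 and 85.1 CPM in WT libraries (0.98 ± 0.20, adjusted p = 0.00196). Dna2, a nuclease of Okazaki fragments, had 139, 163 and 110.4 CPM, against 64.6, 61.8, 55.5 and 70.3 CPM in WT (1.12 ± 0.23, adjusted p = 0.00226). Both calls held under every alternative and without any single library. Dck, the salvage kinase for deoxycytidine, was the 1 of 28 that rose in TET2-FLT3 vehicle, with 234, 287, 193 and 197 CPM, against 131, 116, 134 and 119.9 CPM in WT (0.86 ± 0.21, adjusted p = 0.0125). Of 21 tested genes of mitosis and G2/M, 4 rose in IDH2-FLT3 vehicle, with a median of 0.58. They include the spindle checkpoint kinase Bub1b (229 ± 51.6 CPM in vehicle and 90.1 ± 15.2 CPM in WT, SD, adjusted p = 0.00390), Aurkb (adjusted p = 0.00885, and 0.0585 without V3) and Plk1 (adjusted p = 0.0124, and 0.0648 without V3). In TET2-FLT3 vehicle 2 of the 21 rose, Cdc20 (0.84 ± 0.22, adjusted p = 0.0212, lost without wt1 or wt4) and Cks2 (0.88 ± 0.28, adjusted p = 0.0471, lost without V1, V19 or any WT library). Both were also called in 5-Aza libraries against WT, where neither call held without any 1 of the 8 libraries. With AG-221 against vehicle, 1 of 21 fell, Bub1b (-0.95 ± 0.30, adjusted p = 0.0471, and 0.201 without V3-2); the call held without V9 and ended without any other 1 of the 7 libraries. Cdk6, a G1 kinase, was the 1 of 15 genes of cell cycle entry that fell with AG-221, with 41.3, 31.0, 40.7 and 18.2 CPM, against 79.9, 82.9 and 79.7 CPM with vehicle (-1.30 ± 0.39, adjusted p = 0.0401); the call ended without any 1 of the libraries but V9. Among 4 tested CDK inhibitors, Cdkn2c was called higher in both vehicle groups and lower with AG-221, but its level rests on V3-2 (46.8 CPM) and V5-2 (42.0 CPM), and all other libraries were at or under 3.16 CPM. Without V3-2 its adjusted p was 0.778 in IDH2-FLT3 vehicle against WT, and without V5-2 it was 0.507 in TET2-FLT3 vehicle against WT. Cdkn1a, an inhibitor of the G1 kinases, was also called higher in both vehicle groups, at few reads: 0.759, 0.865 and 0.481 CPM in IDH2-FLT3 vehicle libraries and 0.136, 0.608, 2.30 and 0.384 CPM in TET2-FLT3 vehicle libraries, against 0.153, 0.0755, 0.0826 and 0.0806 CPM in WT libraries. Its call in IDH2-FLT3 vehicle (adjusted p = 0.0270) ended without V3, V3-2, wt2, wt3 or wt4, and that in TET2-FLT3 vehicle (adjusted p = 0.0206) without V5-2, wt2, wt3 or wt4. E2f2, an activator of cell cycle entry, was the 1 of 15 entry genes called higher in IDH2-FLT3 vehicle against WT, at 3.73 ± 4.84 CPM in vehicle and 0.554 ± 0.114 CPM in WT (SD, adjusted p = 0.0496). That call ended without V3 (0.0573), V3-2 (0.635) or any 1 WT library (0.0944 to 0.108).

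Gene-level counts of the mutated genes cannot check the genotypes. Idh2 carries a point mutation, and it was at 311 ± 206 CPM in IDH2-FLT3 vehicle and 178 ± 31.3 CPM in WT (SD, n = 3 and 4). Tet2 counts in the Tet2-/- line, 118, 94.0, 58.7 and 156 CPM with vehicle, stood against 121, 117, 137 and 145 CPM in WT, and reads per exon were not analysed here. Flt3 fell in IDH2-FLT3 vehicle (58.3, 146 and 260.2 CPM, against 328, 303, 534 and 465 CPM in WT, adjusted p = 0.0356), a call that ended without V3 (0.152), V3-2 (0.102), wt3 (0.0911) or wt4 (0.0902).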

How the data were processed

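RNA of sorted cells was read as 19 libraries (SMARTer Ultra Low Input kit, per the labels). Reads were aligned with STAR 2.4.0f1 and counted with featureCounts of Subread 1.4.5-p1 on mm9, per the submitters' processing notes. The authors deposited raw counts per RefSeq accession and FPKM values, which are scaled to accession length and library total. Of 33862 accessions, 33481 were matched to a symbol in RefSeq, 192 in GENCODE names and 189 in neither, and the last held 3.47% of counts. All columns were mapped to groups by their names. The names of each line carry a number of their own, so a batch, if the numbers mark one, and the line cannot be told apart.

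Counts were tested with edgeR 4.0.16 (R 4.3.3): quasi-likelihood tests in 1 fit of all 19 libraries, TMM factors (0.761 to 1.22), low counts removed with filterByExpr, and Benjamini-Hochberg adjustment over 11830 accessions at 0.05. The biological coefficient of variation was 42.9%. Alternatives used DESeq2 1.42.0, limma 3.58.1 on log2(FPKM + 1), other factors, no filter, the compared groups alone and each library left out. The test was checked on simulated counts with 200 changed accessions. The floor given for a count of 0 covers counting error only, while each SE also holds the spread between libraries. The members and lists were chosen with earlier results of these data known. Genes were given per library if on a fixed list of members or among the 6 called with the smallest p in a comparison, and other genes are given by range or estimate. Those singled out for closeness to the threshold or for groups that did not overlap were chosen after their values were seen.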

Additional observations from a re-analysis of the deposited data

Results flagged for a closer look

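In 68 sets of library values of the members given per library (groups of 4), a single library stood far from its group in 4 cases. Chance alone gives about 1 such case in every 20 sets, so 4 cases in 68 sets are near what chance gives. Mcm10 was at 0.970 CPM in AZ11 of the 5-Aza group, above the rest of that group. Pcna was at 245 CPM in AG1 of the AG-221 group, above the rest. Cdc6 was at 2.17 CPM in V5-2 of TET2-FLT3 vehicle, above the rest, and at 0.161 CPM in wt4, below the other WT libraries. The Mcm10 and Cdc6 values rest on few reads.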

How the results depend on the processing

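No paired analysis was possible because the column names of the mutant groups carry no replicate number that the labels share across groups. Every member estimate named as called kept its direction under every alternative. Of the alternative values of single genes, 163 kept their side of the threshold, 67 lost it and 6 gained it. These values cover the called results and also the 7 genes risen in IDH2-FLT3 vehicle, read in AG-221 against vehicle, where none was called. Staying uncalled there counts among the 163, while all 67 losses were of called results. The 163 therefore overstates how well the calls held. Leaving out 1 library at a time gave 1 to 7 called members for IDH2-FLT3 vehicle against WT, 0 to 3 for TET2-FLT3 vehicle against WT, 0 to 2 for AG-221 against vehicle, 0 to 2 for IDH2-FLT3 against TET2-FLT3 vehicle and 0 to 2 for any difference among the 5 groups; the other comparisons stayed at 0. For IDH2-FLT3 vehicle against WT, log2(FPKM + 1) called 1 member (Rfc3, lower) and the sum of the -2 libraries with their namesakes called 3 (Mcm2, Rrm2 and Pold1). In that comparison DESeq2 called 10, the 7 of the main fit and also Mcm4, Cdc45 and Gins3. The share of everything tested that DESeq2 called there is not given here. For TET2-FLT3 vehicle against WT, RLE factors, no filter, the compared groups alone and log2(FPKM + 1) each called 0, and the summed libraries called 2 (Pcna and Rfc5). For 5-Aza against WT, the compared groups alone called 7 and log2(FPKM + 1) called 1 (Dscc1, lower). DESeq2 called 4 members lower for AG-221 against vehicle and 4 for any difference among the groups, where no filter, log2(FPKM + 1), the summed libraries and the removal of V3-2 and V5-2 (chosen after seeing the data) each gave 0. The cause of these shifts was not tested. Apart from shares stated with the comparisons above, the share of everything tested called in each of these fits is not given here. These counts therefore do not show how the members fared beside all accessions. Depth and spread limit what could be called, and the simulation given for the drug comparisons does not measure this for the 35 genes.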
